A study of Mus musculus with 8 samples.

Results

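The upper surface of the tongue and the hard palate are the 2 keratinised surfaces among the 4 oral sites profiled in this study of wild-type C57BL/6J mice. The samples compared were chosen by their labelled tissue: 2 dorsal tongue samples and 2 hard palate samples, 4 of the 8 samples of the series. The other sites were buccal mucosa and ventral tongue, also with 2 samples each. Every sample is a block of tissue cut into 20 serial sections of 14 µm, 280 µm in all, whose RNA was barcoded and counted section by section (tomo-seq with CEL-seq2, which counts the 3′ ends of transcripts by unique molecular identifiers, UMIs). No treatment or genetic change separates the groups, and the labels give neither the age of the mice nor whether the replicates of a site came from separate animals. For the comparison the UMIs of the 20 sections of a sample were summed, and the comparison was repeated on sections 1 to 5 (70 µm).

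Both surfaces are stratified squamous epithelia whose cells fill with keratin filaments and cross-linked envelope proteins before they are shed. On the dorsal tongue the epithelium forms filiform papillae, horny spines in which part of the cells make the hard keratins and cysteine-rich keratin-associated proteins (Krtap) otherwise known from hair and nail. The hard palate bears transverse ridges, the rugae, over a connective tissue bound to bone, and its surface keratinises with the keratin pair of epidermis, Krt1 and Krt10. Tongue and palate also arise from different facial prominences, and transcription factors that pattern those prominences can persist in adult tissue.

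In the sums over all sections, 17866 genes were tested with edgeR's quasi-likelihood test. Of these 1173 (6.57%) were higher in dorsal tongue and 521 (2.92%) were higher in hard palate at an adjusted p under 0.05, and 9.48% differed in either direction. The median log2 fold change of dorsal tongue over hard palate was -0.04 over all genes tested. The counts depended on single libraries. Leaving out dorsal tongue replicate 1 or 2 left 643 or 577 genes higher in dorsal tongue and 127 or 110 higher in hard palate. Without hard palate replicate 1 the counts were 1083 and 610, and without hard palate replicate 2 they were 1899 and 1253. In sections 1 to 5, 13850 genes were tested, of which 639 (4.61%) were higher in dorsal tongue and 277 (2%) in hard palate, 6.61% in either direction. Leaving out each library in turn gave 274 to 1201 and 65 to 752 there, lowest in both directions without dorsal tongue replicate 2 and highest without hard palate replicate 2. In both windows 531 dorsal tongue genes were called (45.3% of the all-section calls and 83.1% of the calls in sections 1 to 5). So were 216 hard palate genes (41.5% and 78.0%), and 0 were called in opposite directions. Sections 1 to 5 are part of the all-section sums of the same libraries, with 17.5% to 34.9% of a sample's UMIs. Agreement between the windows is therefore partly built in.

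The sequences upstream of 2 gene families are shown first, because the called members of the first went one way and those of the second went both ways. No link between these sequences and the site was tested. The Krtap genes lie in dense clusters, and the 32 members called from the main chromosome 11 stretch were all higher in dorsal tongue. The Sprr2 genes, which encode small proline-rich proteins cross-linked into the cornified envelope, lie together on chromosome 3, and their members went in both directions. The 120 bases before the annotated start are printed 5′ to 3′ on the gene's strand from the RefSeq promoters of GRCm38.p6, with capitals marking TATAAA and, in the Sprr2 genes, the octamer ATTTGCAT. For Krtap4-1 this is chr11:99628240-99628359, for Krtap4-6 chr11:99665961-99666080 and for Gm11595 chr11:99772914-99773033, all on the minus strand. For Sprr2d it is chr3:92339020-92339139, for Sprr2e chr3:92352023-92352142, for Sprr2f chr3:92365067-92365186 and for Sprr2h chr3:92385565-92385684, all on the plus strand.
Krtap4-1: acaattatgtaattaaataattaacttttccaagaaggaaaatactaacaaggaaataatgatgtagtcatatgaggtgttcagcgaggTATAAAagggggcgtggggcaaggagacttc
Krtap4-6: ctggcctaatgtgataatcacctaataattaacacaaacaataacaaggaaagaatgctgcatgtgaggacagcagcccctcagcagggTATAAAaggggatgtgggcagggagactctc
Gm11595: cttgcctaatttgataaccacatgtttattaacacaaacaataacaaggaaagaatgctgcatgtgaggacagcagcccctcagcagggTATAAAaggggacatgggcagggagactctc
Sprr2d: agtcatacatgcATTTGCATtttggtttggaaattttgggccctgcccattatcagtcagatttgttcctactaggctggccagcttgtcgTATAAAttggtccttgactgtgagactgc
Sprr2e: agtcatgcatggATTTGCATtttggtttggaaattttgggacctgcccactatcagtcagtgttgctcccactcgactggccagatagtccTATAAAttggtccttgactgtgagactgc
Sprr2f: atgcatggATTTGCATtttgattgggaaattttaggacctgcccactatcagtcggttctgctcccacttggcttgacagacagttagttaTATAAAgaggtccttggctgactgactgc
Sprr2h: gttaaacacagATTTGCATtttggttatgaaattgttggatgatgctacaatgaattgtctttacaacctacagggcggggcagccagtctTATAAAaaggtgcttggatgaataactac

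TATAAA begins 31 bases before the start in the 3 Krtap promoters shown and 29 bases before it in the 4 Sprr2 promoters shown. Both motifs were searched on both strands. TATAAA or its reverse complement was found in 28 of the 30 promoters matched to called genes of the Krtap stretch (93.33%). It was found in 7 of 10 Sprr2 promoters, against 6.341% of all 32851 promoter windows of this length. The octamer, which shares no letters with the TATAAA matches shown, was found in 7 of 10 Sprr2 promoters and in 0 of the 30 Krtap promoters, against 0.7915% of all windows. Krtap4-6 and Gm11595, both in the same stretch, were identical at 92.5% of aligned positions, and Krtap4-6 and Krtap4-1 at 62.4%. The Sprr2d window was 89.17% identical to that of Sprr2e, 73.39% to that of Sprr2f and 64.23% to that of Sprr2h. Sprr2d, Sprr2e and Sprr2f were higher in hard palate and Sprr2h was higher in dorsal tongue, although all 4 windows hold both motifs.

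Totals were 21230278 and 20325813 UMIs in dorsal tongue replicates 1 and 2 and 17743983 and 26376536 in hard palate replicates 1 and 2, with 1.91 to 2.12 reads per UMI and 2.11% to 3.02% of UMIs from mitochondrial genes. Section 5 of dorsal tongue replicate 1 held 2523 UMIs and section 11 of replicate 2 held 14671, so these were left out of section profiles. Replicates correlated at a Spearman's rho of 0.976 (dorsal tongue) and 0.956 (hard palate) across genes, and samples of different sites at 0.873 to 0.893. Each site had 1 library with high Xist (197 CPM in dorsal tongue replicate 1 and 338 CPM in hard palate replicate 2) and 1 with high Y-linked genes, so the 2 libraries of a site did not come from the same animal. Dorsal tongue replicate 2 held a set of gland genes at nearly the same UMIs, and in the same sections, as buccal mucosa replicate 1 and ventral tongue replicate 2. Genes were counted that had at least 20 UMIs and over 50% of them in 1 section. The 3 libraries had 13 in common in section 10, 4 in section 17, 2 in section 6 and 1 in section 8. Mucl2, a secreted mucin-like protein, had 3824, 3751 and 3837 UMIs in section 10 of these libraries, of 4178, 4014 and 4169 in all. Of the 17 genes in sections 10 and 17, 13 were tested and 0 were called between the sites. By the same count, dorsal tongue replicate 1 shared 5 genes with hard palate replicate 2, 0 of them in section 10 and 1 in section 17. Ventral tongue replicate 1 shared 4 genes with dorsal tongue replicate 1 and 4 with hard palate replicate 2. Without sections 10 and 17 in any sample, an alternative added after seeing the data, 1166 genes were higher in dorsal tongue and 532 in hard palate, of which 1137 and 494 were called with all sections; the source of the shared signal was not tested. CPM are UMIs scaled to the total of the sample. Values below are CPM in dorsal tongue replicates 1 and 2, then in hard palate replicates 1 and 2. The shares of all genes called higher in dorsal tongue and in hard palate, 6.57% and 2.92%, are the background for the list counts below. In sections 1 to 5 these shares are 4.61% and 2%. Log2 fold changes are dorsal tongue over hard palate after TMM scaling, whose factors were 0.904 and 0.878 in dorsal tongue and 1.12 and 1.12 in hard palate, and are given ± SE. A list of 20 genes shared by stratified squamous epithelia had 0 members that differed in either window, and its summed level was 14357 and 15929 CPM in dorsal tongue and 21479 and 18108 CPM in hard palate.

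Hair-type keratinisation set the dorsal tongue apart. Of 16 hard keratins listed, 13 were tested, and 12 were higher in dorsal tongue in all sections and again in sections 1 to 5, with a median log2 fold change of 9.94. Together the listed genes took 0.765% of UMIs in both dorsal tongue samples and 0.0111% and 0.0114% in hard palate. Krt36 (chr11:100102007-100105626, minus strand, GRCm38), an acidic hard keratin of filiform papillae and nail, stood at 2340 and 2544 CPM in dorsal tongue and at 6.14 and 1.97 CPM in hard palate. The groups were far apart, with a log2 fold change of 9.59 ± 0.71 (adjusted p = 0.00235). Its basic partner type is represented by Krt84 (chr15:101525026-101532820, minus strand), at 2194 and 2600 CPM against 69.8 and 52.6 CPM (5.63 ± 0.30, adjusted p = 0.00123). Krt84 thus kept a clear level in the palate, where Krt36 was near 0.

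Other hard keratins showed the same separation at lower levels. Krt31 stood at 334 and 259 CPM in dorsal tongue and at 0.451 and 0.152 CPM in hard palate. Krt33a was at 93.3 and 83.6 against 0.113 and 0.0758 CPM. Hard keratins this low in hard palate passed the filter on low counts only through dorsal tongue, so their direction was set in advance. In sections 1 to 5, Krt31 was at 657 and 441 CPM and had no UMI in either palate sample, at least 1101-fold higher in dorsal tongue against a floor of 3 UMIs per library. The exception was Krt32, at 257 and 28.2 CPM in dorsal tongue and 31.5 and 56.8 CPM in hard palate: the groups overlapped. With any 1 library left out, 12 or 13 hard keratins were higher in dorsal tongue.

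**Figure D1:**
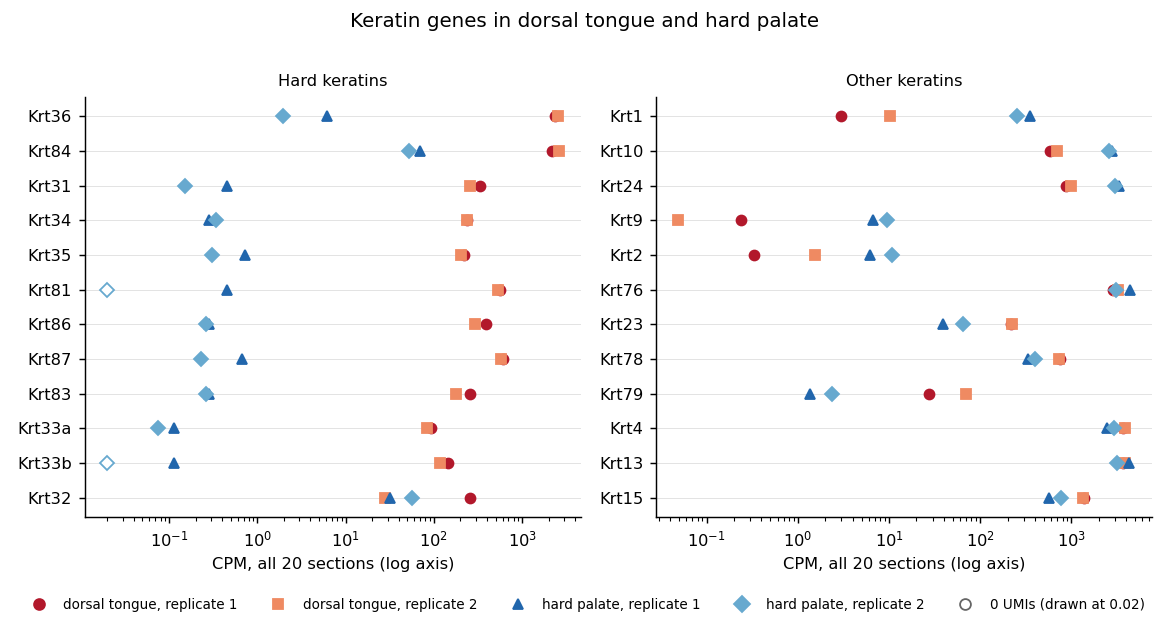
CPM on a log scale of hard keratins (left) and other keratins (right), one point per sample with colour and shape by site and replicate; open symbols mark samples with no UMI. Hard keratins other than Krt84 and Krt32 sit under 10 CPM in both palate samples and above them in both tongue samples, whereas Krt1, Krt10 and Krt24 sit higher in both palate samples.

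The keratin-associated proteins followed the hard keratins. Of 41 genes with a Krtap symbol, 25 were tested and 24 were higher in dorsal tongue. Of the 25 tested, 7 had no UMI in either palate sample. Such genes passed the filter on low counts only through the dorsal tongue, so their direction was set in advance. So was that of genes with only a few palate UMIs. The same holds for such entries of the stretch described next. On chromosome 11, 45 gene entries lie between 99550130 and 99993994 (GRCm38), 20 of them with a Krtap symbol. Of these entries 33 were tested and 32 were higher in dorsal tongue. The exception was Krtap16-1, which stayed under 1 CPM in all 4 samples. Their median log2 fold change was 11.32 when the 14 entries with no UMI in either palate sample were set to the bound that 3 UMIs allow. In sections 1 to 5, 32 of 32 entries were called, 22 of them with no UMI in either palate sample.

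Krtap3-1 stood at 1835 and 1413 CPM in dorsal tongue and 0.845 and 0.19 CPM in hard palate (12.03 ± 0.75, adjusted p = 0.00169). Krtap4-6 was at 421 and 300 CPM and Gm11595 at 715 and 292 CPM, and neither had a UMI in the palate, which makes them at least 2549-fold and at least 3560-fold higher in dorsal tongue. Krtap3-3 was the member with the highest palate level, at 136 and 148 CPM against 1631 and 1838 CPM. A Krtap gene of another cluster, Krtap13 on chromosome 16, was at 1924 and 1847 CPM against 11.6 and 5.35 CPM (8.14 ± 0.51, adjusted p = 0.00169). The sources used here do not say how reads shared by near-identical genes were counted. Values of single Krtap, hard keratin and Sprr2 genes are therefore uncertain between members. The family sums are less exposed to this: the chromosome 11 stretch summed to 18441 and 12080 CPM in dorsal tongue and 146 and 163 CPM in hard palate.

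Among 13 tested partners and regulators of hair keratinisation, 4 were higher in dorsal tongue and 1 in hard palate. Hoxc13, a homeobox factor that activates hard keratin genes in hair and nail, stood at 49.2 and 70.1 CPM in dorsal tongue and at 0.113 and 0.114 CPM in hard palate (9.30 ± 0.43, adjusted p = 0.00123). Gprc5d, a receptor of keratinising hair and nail cells, was at 11.02 and 7.53 CPM against no UMI, at least 65.6-fold higher. Tchhl1, a fused S100 protein related to trichohyalin, was at 11.6 and 32.6 CPM against 0.338 and 0.0379 CPM. Lef1, the Wnt-responsive factor of the hair matrix, was at 20.2 and 46.2 CPM against 6.88 and 3.07 CPM (adjusted p = 0.035), a call lost without dorsal tongue replicate 2 (adjusted p = 0.101). The palate gene of the list was Selenbp1, a selenium-binding protein, at 215 and 229 CPM in dorsal tongue and 1405 and 1383 CPM in hard palate (-2.32 ± 0.21, adjusted p = 0.00369). The list as a whole thus did not go one way, and its median log2 fold change was -0.05.

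Of 11 tested keratins of epidermal type and upper layers, 4 were higher in hard palate and 3 in dorsal tongue. Krt1 (chr15:101845426-101850794, minus strand), the basic keratin of suprabasal epidermis, stood at 2.97 and 10.2 CPM in dorsal tongue and 354 and 252 CPM in hard palate (-5.18 ± 0.67, adjusted p = 0.0113). Its acidic partner Krt10 (chr11:99385254-99389364, minus strand) was at 583 and 690 CPM against 2813 and 2548 CPM (-1.74 ± 0.22, adjusted p = 0.0107). Both palate samples lay above both tongue samples for each gene, and the calls held when any 1 library was left out. In dorsal tongue Krt10 had a clear level and its partner Krt1 a low one. Krt9, the keratin of palms and soles, was at 0.236 and 0.0492 CPM against 6.59 and 9.52 CPM (adjusted p = 0.00921). Krt24 was at 862 and 994 CPM against 3283 and 2987 CPM (-1.42, adjusted p = 0.0174), a call lost without dorsal tongue replicate 1 (adjusted p = 0.0870) or replicate 2 (adjusted p = 0.0668).

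Other keratins of the upper layers were higher in dorsal tongue. Krt23 stood at 217 and 225 CPM in dorsal tongue and 39.0 and 64.2 CPM in hard palate (2.43 ± 0.30, adjusted p = 0.0103). Krt79, a keratin of the infundibulum and sebaceous duct in skin, was at 27.7 and 68.9 CPM against 1.35 and 2.39 CPM (5.01 ± 0.61, adjusted p = 0.00921). Both groups were separate in every sample. Krt78 was at 751 and 730 CPM against 337 and 403 CPM (adjusted p = 0.0193), and Krt15, a keratin of basal cells, at 1363 and 1341 CPM against 574 and 774 CPM (adjusted p = 0.0266). The last 2 calls were lost without dorsal tongue replicate 1 (adjusted p = 0.0872 and 0.0849) or replicate 2 (adjusted p = 0.110 and 0.114).

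The most abundant keratins met the ceiling of the assay, since a gene can hold only as many distinct UMIs in a section as there are UMI sequences. Krt76, the keratin for which the hard palate is best known, reached 3739 and 3870 UMIs in its fullest section in dorsal tongue and 4240 and 4145 in hard palate. In UMIs it did not differ (log2 fold change 0.05, adjusted p = 0.927). In reads it was higher in hard palate by a log2 fold change of -2.80 (adjusted p = 0.0192), and in estimated transcripts, which correct for repeated UMIs, by -2.33 (adjusted p = 0.0163). Krt4, the keratin of lining mucosa, had a log2 fold change of 0.82 in UMIs (adjusted p = 0.0773) and was higher in dorsal tongue by 3.02 in reads (adjusted p = 0.0321) and 2.56 in estimated transcripts (adjusted p = 0.0304). For genes this abundant the UMI fold changes are therefore compressed: Krt10 went from -1.74 in UMIs to -3.07 in reads, and Krt24 from -1.42 to -3.47.

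Cornified envelope genes did not move as one group. Of 13 small proline-rich protein genes tested, 3 were higher in dorsal tongue and 3 in hard palate. Sprr2d stood at 0.188 and 3.20 CPM in dorsal tongue and 334 and 267 CPM in hard palate (-7.13 ± 1.15, adjusted p = 0.0206), and Sprr2e at 0.141 and 0.246 CPM against 12.3 and 10.5 CPM (adjusted p = 0.00333). Sprr2f was at 0.0471 and 1.67 CPM against 40.2 and 30.6 CPM (adjusted p = 0.0483, and 0.0611 without hard palate replicate 1). Sprr2h went the other way, at 78.3 and 63.0 CPM in dorsal tongue and 25.9 and 19.8 CPM in hard palate (1.96 ± 0.26, adjusted p = 0.0115, and 0.0571 without dorsal tongue replicate 1). The 4 genes whose promoters are printed above thus separated by site in every sample, in opposite directions.

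Late cornified envelope (Lce) genes, which encode envelope proteins of the outermost cells, had positive fold changes for all 21 tested, and 7 were higher in dorsal tongue. The number called was 0 without dorsal tongue replicate 1, 2 without replicate 2, 7 without hard palate replicate 1 and 17 without hard palate replicate 2. Lce1f stood at 1015 and 1020 CPM in dorsal tongue and 483 and 633 CPM in hard palate (1.20 ± 0.23, adjusted p = 0.0333). Of 28 tested envelope scaffold and fused S100 genes, 1 was higher in dorsal tongue and 2 in hard palate. Fold changes were positive for 22 of the 28. Among all genes tested, 6.57% were higher in dorsal tongue and 2.92% in hard palate. Flg2, a filaggrin-family protein, was higher in hard palate, at 0.0471 and 0.148 CPM against 4.40 and 15.9 CPM (-6.31 ± 0.96, adjusted p = 0.0176, edgeR's quasi-likelihood test). Crnn (cornulin), of the same fused S100 family, was at 424 and 469 CPM against 1149 and 1574 CPM (adjusted p = 0.0351), a call lost without dorsal tongue replicate 1 or 2 (adjusted p = 0.174 and 0.150). In sections 1 to 5 only 2 of 20 Lce genes passed.

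Patterning transcription factors of the face separated the sites in both directions. Of 68 listed, 58 were tested; 11 were higher in dorsal tongue and 11 in hard palate, against 6.57% and 2.92% of all genes. The counts ran from 7 to 14 and from 6 to 14 when a library was left out. Pax9 (chr12:56691767-56712822, plus strand), a paired-box factor needed for palate, tooth and filiform papilla formation, stood at 293 and 261 CPM in dorsal tongue and 24.9 and 29.2 CPM in hard palate (3.69 ± 0.23, adjusted p = 0.00169). Tbx15, a T-box factor of limb, skin and head mesenchyme, was at 81.1 and 90.7 CPM against 3.49 and 2.65 CPM (5.14 ± 0.29, adjusted p = 0.00134). Barx2, a homeobox factor, was at 231 and 261 CPM against 26.5 and 26.5 CPM (3.55 ± 0.22, adjusted p = 0.00175). Each of these was higher in both tongue samples than in either palate sample, in all sections and in sections 1 to 5.

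Nkx2-3, a homeobox factor of pharyngeal endoderm, stood at 38.9 and 38.3 CPM in dorsal tongue and at 0.113 CPM and no UMI in hard palate, where 2 UMIs were counted in all: the ratio of counts was 851 with a 95% exact interval of 235 to 7033 for counting error only. Hand2, a factor of the mandibular arch, was at 20.8 and 15.4 CPM against 0.620 and 0.265 CPM (5.72 ± 0.50, adjusted p = 0.00365). Tbx3 was at 103 and 91.6 CPM against 11.5 and 18.7 CPM (adjusted p = 0.00573). Lhx6, also known from the first pharyngeal arch, was at 6.83 and 10.3 CPM against 1.18 and 1.63 CPM (adjusted p = 0.0138), a call lost without dorsal tongue replicate 2 (adjusted p = 0.0760). Nkx2-5, Foxf2 and Mn1 were also called higher in dorsal tongue.

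On the palate side, Tfap2b (chr1:19208914-19238576, plus strand), an AP-2 factor of neural crest and face, stood at 7.54 and 5.81 CPM in dorsal tongue and 212 and 202 CPM in hard palate (-4.62 ± 0.26, adjusted p = 0.00127). Meis2, a TALE homeobox factor of cranial mesenchyme, was at 10.9 and 7.23 CPM against 194 and 139 CPM (log2 fold change -3.87). Its relative Meis1 was at 22.0 and 30.6 CPM against 171 and 124 CPM (adjusted p = 0.0134, and 0.0749 without dorsal tongue replicate 1). These 3 factors had no overlap between the sites. Shox2, needed for the anterior palate, was at 0.989 and 0.886 CPM against 14.8 and 45.5 CPM (-4.67 ± 0.65, adjusted p = 0.0135). Six2 was at 1.13 and 1.97 CPM against 17.4 and 24.1 CPM and Alx1 at 0.377 and 0.394 CPM against 6.99 and 12.3 CPM, with adjusted p of 0.00965 and 0.00745. The others were Irx1, Irx2, Irx3, Dlx6 and Eya1.

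**Figure D2:**
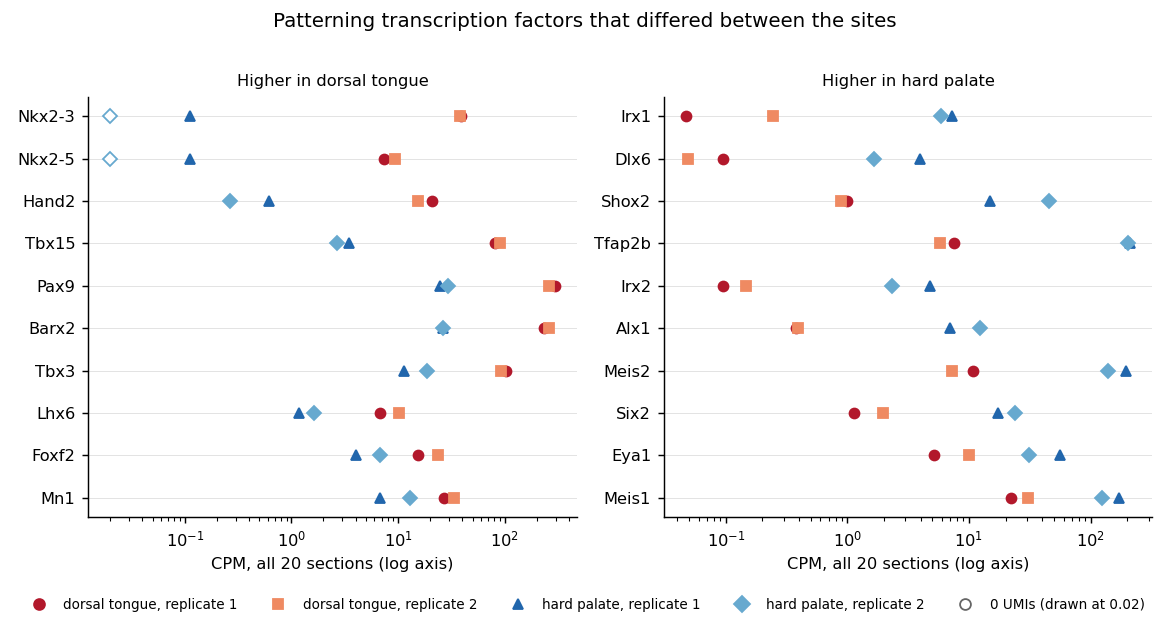
CPM on a log scale in each of the 4 samples of the 10 patterning transcription factors with the largest fold changes in each direction, one point per sample with colour and shape by site and replicate; open symbols mark samples with no UMI. Pax9, Tbx15 and Barx2 sit higher in both tongue samples, and Tfap2b, Meis2 and Meis1 higher in both palate samples.

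Of 30 keratinocyte transcription factors tested, 0 were higher in dorsal tongue and 6 in hard palate, with 2 to 11 palate calls when a library was left out. Fold changes were positive for 8 and negative for 22. Over all genes tested, 6.57% were higher in dorsal tongue and 2.92% in hard palate. Sox21, which acts in hair cuticle and tooth epithelium, stood at 5.28 and 3.89 CPM in dorsal tongue and 108 and 94.0 CPM in hard palate (-4.13 ± 0.28, adjusted p = 0.00195). Foxe1, a forkhead factor whose loss causes cleft palate, was at 19.6 and 30.8 CPM against 208 and 185 CPM (-2.62 ± 0.31, adjusted p = 0.00808). Both calls held without any 1 library. Bnc1 and Bnc2 (basonuclins) passed with adjusted p of 0.0113 and 0.0142, and missed it without dorsal tongue replicate 2 (0.0802 and 0.0700). Sox9, at 25.9 and 19.7 CPM against 67.1 and 68.8 CPM, lost its call without dorsal tongue replicate 1 or 2 (adjusted p = 0.150 and 0.314), as Ehf did (adjusted p = 0.323 and 0.352) and also without hard palate replicate 2 (0.0513).

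Of 50 Wnt pathway genes tested, 4 were higher in dorsal tongue (Wnt3, Fzd4, Apcdd1 and Porcn) and 7 in hard palate (Wnt5b, Wnt6, Wnt10b, Rspo4, Fzd5, Sfrp2 and Dkk2), where all genes tested give 6.57% and 2.92%. The dorsal tongue share was near that background. The ligand Wnt3 stood at 10.03 and 7.18 CPM in dorsal tongue and 1.41 and 1.63 CPM in hard palate (2.82 ± 0.36, adjusted p = 0.0108, and 0.0560 without dorsal tongue replicate 1). Wnt6, another ligand, was at 2.68 and 2.61 CPM against 9.58 and 11.7 CPM (adjusted p = 0.0322), a call lost without dorsal tongue replicate 1 or 2 (0.208 and 0.243). Counts for the list ran from 2 to 6 and from 1 to 8 when a library was left out. Of 36 BMP and TGF-beta genes, 3 were higher in dorsal tongue (Gdf10, Gdf15 and Bambi) and 4 in hard palate (Bmp7, Inhbb, Grem1 and Fstl3), against the same background. These counts ran from 0 to 6 and from 0 to 7 when a library was left out, and both were 0 without dorsal tongue replicate 1. The growth factor Epgn (epigen), a ligand of the EGF receptor, was at 310 and 169 CPM against 35.1 and 47.3 CPM (2.87 ± 0.36, adjusted p = 0.0107) and was called in both windows.

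Outside these lists, the dorsal tongue genes with the largest differences included Bpifa5 (chr2:154162607-154168450, plus strand), a secreted protein of the BPI fold family, at 1946 and 1960 CPM in dorsal tongue and 9.24 and 7.01 CPM in hard palate (8.24 ± 0.31, adjusted p = 0.00123). Ada, adenosine deaminase, was at 2385 and 2421 CPM against 61.3 and 51.9 CPM (5.74 ± 0.25). Gzmn, a granzyme, was at 44.1 and 44.7 CPM against no UMI, at least 314-fold higher. Replicates of the tongue were nearly equal for these genes. Lrrc15, a leucine-rich repeat membrane protein, was at 246 and 180 CPM against 2.82 and 7.73 CPM (adjusted p = 0.00537). Tlx1, a homeobox factor, was at 36.3 and 23.6 CPM against 0.282 and 0.303 CPM (6.97 ± 0.41, adjusted p = 0.00145). Igfbp5, which binds insulin-like growth factors, was at 613 and 592 CPM against 141 and 221 CPM (adjusted p = 0.0129).

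The hard palate genes included a gene of tooth-attached epithelium, secreted and matrix proteins, and host defence genes. Odam (chr5:87885029-87894174, plus strand), an ameloblast protein that also marks the epithelium attached to teeth, had no UMI in dorsal tongue replicate 1 and 0.984 CPM in replicate 2, against 167 and 126 CPM in hard palate (-7.88 ± 1.12, adjusted p = 0.0146). Cytl1, a small secreted protein of cartilage, was at 0.283 and 0.295 CPM against 64.8 and 88.8 CPM (-7.70 ± 0.37, adjusted p = 0.00123), and in sections 1 to 5 it had no UMI in the tongue and 114 and 119 CPM in the palate, at least 154-fold higher. Sbpl, a gene related to spermine-binding protein, was at no UMI and 0.197 CPM against 16.7 and 17.2 CPM (adjusted p = 0.00808). Tnn, tenascin-N of the extracellular matrix, was at 4.43 and 7.43 CPM against 67.4 and 73.8 CPM (-3.23 ± 0.34, adjusted p = 0.00626), and Lgi2 at 3.30 and 4.67 CPM against 131 and 197 CPM (-5.03 ± 0.36, adjusted p = 0.00221). All 5 separated the sites in every sample.

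Malat1, a nuclear long noncoding RNA, stood at 193 and 157 CPM in dorsal tongue and 875 and 816 CPM in hard palate (-1.94 ± 0.22, adjusted p = 0.00713, and 0.0554 without dorsal tongue replicate 2). Trbc2 (chr6:41546730-41548352, plus strand), a constant segment of the T cell receptor beta chain, was at 11.7 and 12.3 CPM against 259 and 205 CPM (-3.94 ± 0.25, adjusted p = 0.00177). Other genes of T cells were low. Cd3e was at 0.283 and 0.295 CPM against 1.47 and 0.493 CPM (adjusted p = 0.290), and Trac at 0.707 and 1.18 CPM against 4.79 and 1.36 CPM (adjusted p = 0.303), higher in both palate samples without passing the test. Of 18 tested markers of T, B and mast cells, 1 was called, Trbc2 itself, but 16 had negative fold changes, with a median of -1.36.

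Neutrophil and host defence genes were high in hard palate and uneven between its 2 samples. Of 15 listed neutrophil markers 9 were tested, and 7 were higher in hard palate: S100a9, Ltf, Csf3r, Cxcr2, Mmp9, Il1b and Cxcl2. Members near 0 in dorsal tongue, such as Csf3r, passed the filter on low counts only through hard palate. Their direction was therefore set in advance. The listed markers summed to 7.07 and 14.6 CPM in dorsal tongue and 810 and 208 CPM in hard palate. Ltf, lactoferrin, was at 0.141 and 1.97 CPM against 159 and 95.1 CPM (-6.57 ± 1.03, adjusted p = 0.0194). S100a9, a subunit of calprotectin, was at 0.518 and 3.44 CPM against 214 and 54.3 CPM (adjusted p = 0.0363), and its partner S100a8 at 2.73 and 5.90 CPM against 407 and 36.1 CPM, with no overlap and an adjusted p of 0.0581. Hard palate replicate 1 was the higher palate sample for each of these 3 genes. The list had 3 to 7 calls when a library was left out, and 0 of 5 in sections 1 to 5.

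Several of these genes are made by epithelium as well as by neutrophils, and the chemokines that attract neutrophils were also high. Cxcl5 stood at 0.0942 and 1.43 CPM in dorsal tongue and 106 and 57.6 CPM in hard palate (-6.40 ± 1.02, adjusted p = 0.0198), and Cxcl1 at 0.942 and 0.935 CPM against 24.0 and 16.6 CPM (-4.09 ± 0.36, adjusted p = 0.0037). Reg3g, an antimicrobial lectin, was at no UMI and 0.394 CPM against 23.4 and 121 CPM (-8.17 ± 1.35, adjusted p = 0.0224), with the higher value in hard palate replicate 2. All 9 tested members of the neutrophil list had negative fold changes. Among them Csf3r, a receptor of neutrophils, and Retnlg were low in all 4 samples and higher in both palate samples. Csf3r was at no UMI and 0.0492 CPM against 0.845 and 0.910 CPM and lost its call whichever library was left out. Retnlg was at 0.518 and 0.640 CPM against 1.47 and 2.43 CPM (adjusted p = 0.143). In bulk sums, fewer cells of a type and less RNA per cell cannot be told apart. The part of neutrophils in these differences was not tested. Of 32 antimicrobial and alarmin genes tested, 3 were higher in dorsal tongue and 8 in hard palate, against 6.57% and 2.92% of all genes. The dorsal tongue share was near that background. Defb4, a beta-defensin, was among the 3 at 1591 and 1689 CPM against 486 and 821 CPM (adjusted p = 0.0308), a call lost without dorsal tongue replicate 1 or 2.

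**Figure D3:**
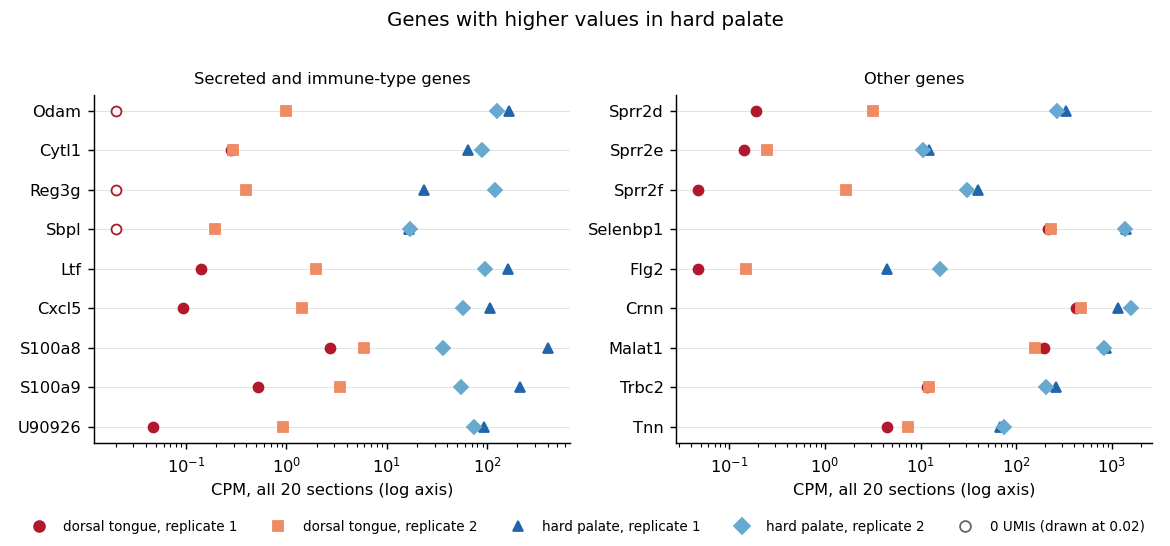
CPM on a log scale of genes with higher values in hard palate, one point per sample with colour and shape by site and replicate; open symbols mark samples with no UMI. For S100a8 the palate samples stand at 407 and 36.1 CPM and for Reg3g at 23.4 and 121 CPM, wider apart than the palate samples of Cytl1 and Trbc2.

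The blocks differed in tissue other than epithelium. Over all genes tested, 6.57% were higher in dorsal tongue and 2.92% in hard palate. Of 40 tested skeletal muscle genes, 36 were higher in dorsal tongue, and the 43 listed genes took 3.004% and 2.91% of UMIs there and 0.0870% and 0.0318% in hard palate. The muscle creatine kinase Ckm was at 1680 and 1605 CPM against 116 and 130 CPM (4.07 ± 0.22, adjusted p = 0.00127). The part of muscle content in the differences of other genes was not tested. Of 15 tested cartilage and bone genes, 10 did not pass. The 5 higher in hard palate were Acan, Col2a1, Ucma, Ibsp and Mmp9, which is also on the neutrophil list. Acan, the cartilage proteoglycan, was at 0.0471 and 0.0492 CPM against 5.64 and 2.96 CPM (adjusted p = 0.00808, edgeR's quasi-likelihood test). At such tongue levels Acan passed the filter on low counts only through hard palate, so its direction was set in advance. Of 12 tested genes of respiratory and olfactory epithelium, 3 were higher in hard palate, Reg3g among them. Reg3g, near 0 in dorsal tongue, passed the filter in the same way as Acan. The ciliated-cell factor Foxj1 was at no UMI and 0.0492 CPM against 0.507 and 3.07 CPM (adjusted p = 0.0722). Of 29 cell cycle genes, 0 were called in either window, although all 29 had negative fold changes in all sections. Without hard palate replicate 2, 15 of the cell cycle genes were higher in hard palate, and their summed level was 603 and 711 CPM in dorsal tongue and 1870 and 836 CPM in hard palate, highest in hard palate replicate 1.

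**Figure D4:**
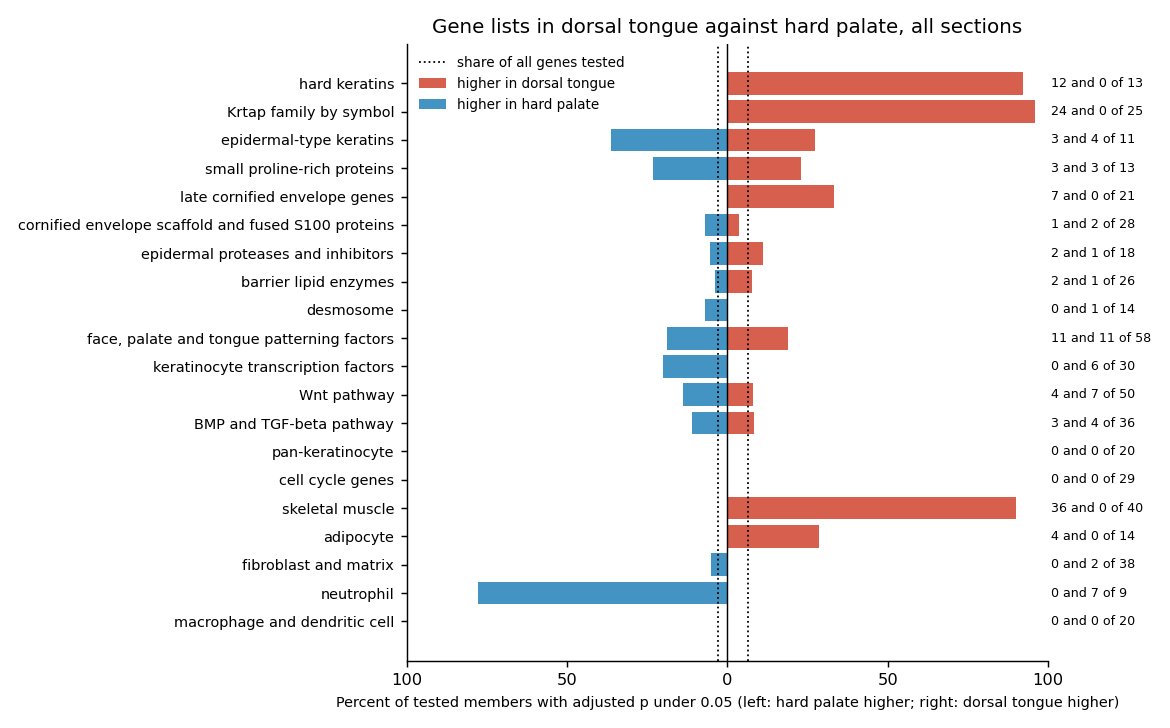
Percent of the tested genes of each list called higher in dorsal tongue (right) or in hard palate (left) in all sections, with the counts at the side; dotted lines mark the percent among all genes tested (6.57% and 2.92%). Hard keratins, Krtap genes and skeletal muscle reach the highest percentages on the dorsal tongue side, and the neutrophil list on the hard palate side.

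Repeating the comparison on sections 1 to 5 kept the contrast of hard and epidermal-type keratins, but not every keratin call. Of 10 tested epidermal-type keratins there, 4 were higher in hard palate and 2 in dorsal tongue, against 2% and 4.61% of all genes. Krt24 did not pass (adjusted p = 0.0531, edgeR's quasi-likelihood test), and 0 of 5 tested basal and lining keratins were called. Krt36, Krt84, Hoxc13, Pax9, Tfap2b, Sox21, Bpifa5, Ada, Krt1, Krt10 and Cytl1 were called in the same direction in both windows, and Krt10 lost its call there without dorsal tongue replicate 1 or 2 (adjusted p = 0.128 and 0.211). Barx2 stood at 282 and 325 CPM in dorsal tongue and 13.7 and 16.6 CPM in hard palate (4.59 ± 0.30, adjusted p = 0.00127). Of 38 tested muscle genes, 21 were higher in dorsal tongue, with 13 and 11 without dorsal tongue replicate 1 or 2 and 33 and 37 without hard palate replicate 1 or 2. The summed muscle level fell to 17105 and 15461 CPM in dorsal tongue, still 1388 and 196 CPM in hard palate. Several palate genes no longer passed, among them Ltf, at 0.269 and 7.83 CPM against 38.1 and 31.3 CPM (adjusted p = 0.136), Cxcl5 (adjusted p = 0.174) and Sprr2f (adjusted p = 0.182). Genes of macrophages and dendritic cells were higher in dorsal tongue for 6 of 19 tested, against 4.61% of all genes in sections 1 to 5. In all sections 0 of 20 were. Csf1r was at 27.7 and 27.7 CPM against 13.2 and 10.6 CPM in sections 1 to 5 (adjusted p = 0.0300), a call lost without dorsal tongue replicate 1 or 2.

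The labels do not say at which end the section numbering starts, and whether section 1 is the same layer in both tissues was not tested. Late cornified envelope genes summed to their highest level at low section numbers in all 4 samples. They ran from 33328 CPM (section 4) to 10893 CPM (section 15) and from 34045 CPM (section 2) to 14093 CPM (section 19) in dorsal tongue, and from 26497 CPM (section 2) to 3345 CPM (section 17) and from 28015 CPM (section 1) to 8977 CPM (section 20) in hard palate. The summed level of the 20 squamous epithelial genes had another order. It was highest in section 1 (879054 UMIs) of dorsal tongue replicate 1, section 4 (764299) of replicate 2, section 20 (52783) of hard palate replicate 1 and section 9 (554582) of replicate 2, and across 19 or 20 sections of a sample it ran against section UMIs with a Spearman's rho of -0.78 to -0.94. Sections of a sample share its library, and these genes include ones near the UMI ceiling. Hard keratins summed to 12160 CPM in section 3 and 3877 CPM in section 20 of dorsal tongue replicate 1, and to 12894 CPM in section 1 and 4285 CPM in section 19 of replicate 2. The Krtap stretch ran from 38546 CPM (section 3) to 3917 CPM (section 15) in replicate 1 and from 24061 CPM (section 1) to 6088 CPM (section 17) in replicate 2, so that both families were high at low section numbers in both tongue samples and still present throughout. Muscle genes ran the other way, from 7919 and 9869 CPM in section 1 to 42524 CPM in section 20 and 39895 CPM in section 19.

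In hard palate replicate 1, muscle genes stood at 14412 CPM in section 19, 8181 CPM in section 4 and 3757 CPM in section 1, against a median of 203 CPM over its sections. Section 19 was also its highest for hard keratins, at 567 CPM against a median of 95.05 CPM. Hard palate replicate 2 stayed at or under 514 CPM for muscle. The neutrophil list lay between 339 and 1686 CPM in the sections of hard palate replicate 1 and between 45.1 CPM (section 2) and 457 CPM (section 20) in replicate 2. The palate samples thus differed in this list in level and in where it was high.

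**Figure D5:**
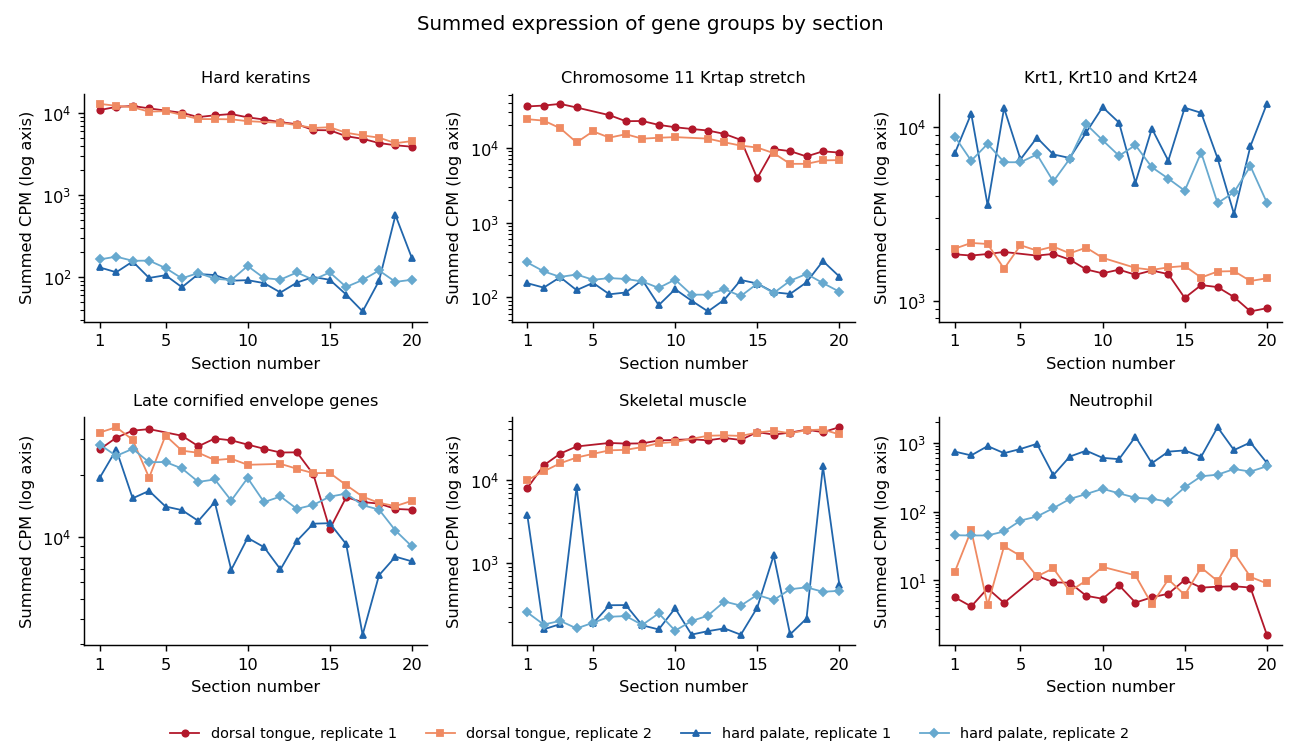
Summed CPM by section number (1 to 20) on a log scale, one line per sample and one panel for each of the 6 gene groups; 1 section of each tongue sample with few UMIs is left out. Hard keratins and the Krtap stretch decline with section number in both tongue samples, muscle genes climb in the tongue, and hard palate replicate 1 has single high sections for muscle.

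Whether the site difference itself depended on depth was tested with an interaction of site and window (sections 1 to 5 against 6 to 20, sample as a block). Of 16452 genes, the signed log2 difference of dorsal tongue over hard palate was shifted towards dorsal tongue in sections 1 to 5 for 111 (0.675%) and towards hard palate for 442 (2.69%), 3.36% in all. A shift towards dorsal tongue can be a smaller palate excess. Without dorsal tongue replicate 2 the counts were 0 and 1, with 2508 genes at an unadjusted p under 0.05, and of the 10 genes named for this test 0 kept their call under all 4 omissions. Ltf was at 224 and 113 CPM in sections 6 to 20 of hard palate and 38.1 and 31.3 CPM in sections 1 to 5, against 0.114 and 0.435 and then 0.269 and 7.83 CPM in dorsal tongue (interaction 5.93 ± 0.63, adjusted p = 0.578 without dorsal tongue replicate 2). For Ltf the palate excess was thus the smaller one in sections 1 to 5. Of 40 muscle genes 12 were shifted towards hard palate in sections 1 to 5, and this count ran from 0 (without dorsal tongue replicate 2) to 31 (without hard palate replicate 2).

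The other sites show on which side a difference lay. Against buccal mucosa replicate 1 and both ventral tongue samples, both dorsal tongue samples were above all 3 for 253 of the 1173 dorsal tongue genes (21.6%), and both palate samples were below all 3 for 1012 (86.3%). Of the 521 hard palate genes, both palate samples were above all 3 for 471 (90.4%), and both dorsal tongue samples were below all 3 for 224 (43.0%). Buccal mucosa replicate 2, whose 20 squamous epithelial genes summed to 969.8 CPM against 10237 to 14979 CPM in the other 3, was left out of these counts; with it the first counts were 231 and 900 and the second 410 and 154. Hard palate was thus the outlying site for most genes of either direction, as a description with no test. Nkx2-3, for example, was at 145 CPM in buccal mucosa replicate 1 and 76.6 and 83.4 CPM in ventral tongue, above the dorsal tongue, and Tbx15 at 96.1, 129 and 196 CPM. Hard keratins and Krtap genes were among those with the top level in dorsal tongue: Krtap3-1 was at 8.12 CPM in buccal mucosa replicate 1 and 197 and 295 CPM in ventral tongue.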

How the data were processed

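The deposited tables hold UMI counts, read counts and estimated counts of transcripts (expected counts, rounded here) per gene and section. Per the labels' protocols, RNA of single sections went into CEL-seq2 libraries; per the submitters' processing notes, the build was GRCm38 and the tools included STAR 2.7.9a and Trim Galore 0.6.10. The counting program is not given in these sources. UMI counts were summed over 20 sections, or over 5. Of 33549 entries, 413 named several genes; these stayed in library sizes and tests and were not named. The 4 samples were fitted alone with edgeR 4.0.16 (R 4.3.3; filterByExpr, TMM, quasi-likelihood F-test, Benjamini-Hochberg adjusted p under 0.05); SE is the fold change over the square root of F. A gene with no UMI in a group is given a bound of 3 UMIs per library. In any list, a gene near 0 at a site passed filterByExpr only through the other site, which set its direction in advance. With 2 samples a group, each p-value rests on the spread of these libraries, part of which can be technical.

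The samples and the 45 gene lists were chosen with earlier results of these data known. The rule for named genes took the 10 largest fold changes in each direction, the 10 largest outside the lists and the 10 largest differences in CPM. These had to pass, with no overlap and a mean of at least 10 CPM on the higher side. It also took, called or not, the 4 members of each list with the lowest p. For lists of up to 12 it took every tested member. Not every gene so taken is printed. Other genes were picked after their values were seen, and not every called list member is named. Alternatives were other scalings, DESeq2 1.42.0, no filter, reads, transcripts, other sections, more samples, a replicate block and leaving out each library.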

Additional observations from a re-analysis of the deposited data

Results flagged for a closer look

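Each result here was reached because the dorsal tongue minus hard palate difference changed with depth (sections 1 to 5 minus sections 6 to 20, log2, edgeR's quasi-likelihood test on the interaction, Benjamini-Hochberg adjusted). The signed difference was shifted towards dorsal tongue in sections 1 to 5 for 111 genes and towards hard palate for 442. The 5 genes with the largest positive values were Krt31 (6.35), Ltf (5.93), Cdo1 (3.31), Sfrp2 (3.25) and Psca (2.65). For Ltf, Sfrp2 and Psca the hard palate level was higher in sections 6 to 20, so that the palate excess was the smaller one in sections 1 to 5: Sfrp2, a secreted Wnt-binding protein, was at 5.97 and 8.73 CPM in sections 1 to 5 of hard palate and 37.0 and 74.4 CPM in sections 6 to 20. Krt31 had no UMI in sections 1 to 5 of either palate sample, so its value depends on the prior count.

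The 5 most negative values were those of Tnmd (-6.88), Scgb2b27 (-5.14), Lrrc30 (-5.12), Mylk4 (-4.84) and Dhrs7c (-4.41). Lrrc30, Mylk4 and Dhrs7c are expressed in skeletal muscle; Dhrs7c was at 16.1 and 14.7 CPM in sections 1 to 5 of dorsal tongue and 50.9 and 63.3 CPM in sections 6 to 20, and at 2.42 CPM and no UMI, then 0.346 and 0.0485 CPM, in hard palate. Tnmd, a tendon gene, had no UMI in sections 1 to 5 of either dorsal tongue sample, so that its value too depends on the prior count. The level of Scgb2b27 in dorsal tongue was 0.286 CPM in sections 6 to 20 of replicate 1 and 128 CPM in those of replicate 2, where section 10 held 2021 of its 2077 UMIs, as in the 2 other libraries that share gland genes in that section; without sections 10 and 17 its value was 0.27 (adjusted p = 0.811). All 10 calls were lost without dorsal tongue replicate 2.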

How the results depend on the processing

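In all sections 1173 genes were higher in dorsal tongue and 521 in hard palate. Scaling on the epithelial genes gave 347 in hard palate, DESeq2 1033 in hard palate, and no filter on low counts 2104 and 1702. With all 8 samples in the fit the counts were 675 and 159, and with 7, without buccal mucosa replicate 2, 1580 and 658. Leaving out each library gave 577 to 1899 in dorsal tongue and 110 to 1253 in hard palate. In sections 1 to 5 (639 and 277), DESeq2 gave 428 in hard palate, no filter 1295 and 982, sections 1 to 10 gave 483 in hard palate, all 8 samples 70 and 12, 7 samples 630 and 320, and leaving out each library 274 to 1201 and 65 to 752. For the dependence on depth (111 and 442), epithelial scaling gave 70 above 0 and moved the median over all genes from -0.03 to -0.18, DESeq2 gave 69 above 0, no filter 504 and 761, and sections 1 to 10 against 11 to 20 gave 281 below 0. Leaving out each library gave 0 to 507 and 1 to 493.

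With the replicate number as a block the counts were 909 and 338 in all sections and 555 and 204 in sections 1 to 5. Same-numbered samples do not deviate together (correlation -0.26), and the labels tie them to no shared animal or day, so the numbers do not pair the samples. The crossed replicate block, added after seeing the data, pairs dorsal tongue 1 with hard palate 2 and dorsal tongue 2 with hard palate 1, the libraries of like sex by Xist and Y-linked genes, and gave 1479 and 773 in all sections and 918 and 550 in sections 1 to 5.

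Directions reversed as follows. Krt76 went to -2.80 in reads and -2.33 in estimated transcripts, and to -2.95 and -2.19 in sections 1 to 5. Without hard palate replicate 2, the haemoglobin genes Hba-a1, Hba-a2, Hbb-bs and Hbb-bt went to 1.43, 1.31, 1.11 and 1.45, against -0.93, -1.15, -0.77 and -1.08 without hard palate replicate 1. In sections 1 to 5 the sex-linked genes Ddx3y and Uty went to 5.38 and 8.95 without hard palate replicate 1, against -4.10 and -5.27 without dorsal tongue replicate 2. Xist went to 11.97 without hard palate replicate 2, against -6.61 without dorsal tongue replicate 1. In the depth test Scgb2b27 went from -5.50 (without dorsal tongue replicate 1) to 1.01 without dorsal tongue replicate 2 to 0.27 without sections 10 and 17 and to 5.71 for sections 1 to 10 against 11 to 20, and Dhrs7c from -4.65 (without hard palate replicate 2) to 0.45 without hard palate replicate 1. Of the named genes called in all sections, 91 of 147 kept their call whichever library was left out, and in sections 1 to 5, 73 of 131. Causes of these shifts were not tested, except that leaving out a library leaves 1 sample in a site, assumed to vary like the other site. Depth limits genes near 0, for which a bound is given, and UMI saturation limits the most abundant.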

Other observations

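Salivary genes separated the 2 dorsal tongue samples. Mucl2 was at 0.0471 CPM in replicate 1 and 206 CPM in replicate 2, Car6, a secreted carbonic anhydrase of saliva, at 0.141 and 39.2 CPM, and Pip, a secreted protein of glands, at no UMI and 13.7 CPM. Hard palate held 6.09 CPM and no UMI of Mucl2, 0.958 and 0.645 CPM of Car6, and 0.789 and 0.114 CPM of Pip. The salivary list had 0 calls in the 16 genes tested over all sections and a summed level of 37.2 and 328 CPM in dorsal tongue and 158 and 157 CPM in hard palate. In dorsal tongue replicate 2, section 10 alone held 3824 of the 4178 UMIs of Mucl2, near the UMI ceiling, 784 of 797 of Car6 and 273 of 278 of Pip. The same section held 3751, 691 and 216 UMIs of these genes in buccal mucosa replicate 1 and 3837, 809 and 240 in ventral tongue replicate 2. Where the signal of this section came from was not tested. Taste receptor and taste cell genes were low in all 4 samples. Of 11 tested taste bud genes, 2 were higher in dorsal tongue and 1 in hard palate, against 6.57% and 2.92% of all genes. Fold changes were positive for 5 and negative for 6. The list summed to 53.5 and 59.5 CPM in dorsal tongue and 139 and 112 CPM in hard palate. Car4 stood at 3.82 and 3.74 CPM in dorsal tongue and 0.0564 CPM and no UMI in hard palate. Tas1r1 was at 0.754 and 1.08 CPM against 0.0564 and 0.114 CPM (adjusted p = 0.0271, edgeR's quasi-likelihood test). The Tas1r1 call was lost without dorsal tongue replicate 1 or 2 or hard palate replicate 1.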
